A study of Mus musculus with 6 samples.

Results

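Small nucleolar RNA (snoRNA) host genes are transcribed and spliced into long noncoding RNAs, and their introns are trimmed to release snoRNAs. Box C/D snoRNAs guide 2′-O-methylation of ribosomal RNA and box H/ACA snoRNAs guide its pseudouridylation, while U17 (Snora73) is an H/ACA snoRNA needed for cleavage of the ribosomal RNA precursor. The spliced host RNAs often start with a run of pyrimidines, as the mRNAs of ribosomal proteins do, and many are removed by nonsense-mediated decay (NMD). The level of a host RNA therefore reflects both its synthesis and its decay.

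The genes followed here are 8 of the 55401 genes in each expression table: Snhg1, Snhg3, Snhg5, Snhg6, Snhg8, Snhg12, Gas5 and Zfas1. They were matched by symbol, and all 8 passed the filter of a mean of at least 0.5 TPM, a share of transcripts corrected for their length. They were chosen by measured values in part: Snora73a, a snoRNA inside Snhg3, was listed above 0 in the libraries with extra Rbbp4 alone. Values of Snhg3 and of the Snora73 genes are therefore descriptions with no test. For comparisons that involve Rbbp4 no p-value of a member is printed, and counts of members past a threshold there are descriptions too.

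Expression was measured by poly(A) RNA-seq in the mouse embryonic stem cell (mESC) line 46C, grown in medium with fetal bovine serum, Chir99021, PD0325901 and leukemia inhibitory factor. All cells carried BirA, a biotin ligase, by the study's methods, and were then given by lentivirus the biotin tag alone (control), biotin-Rbbp4 (Rbbp4 OE) or biotin-Rbbp7 (Rbbp7 OE). By the same methods, blasticidin selected the cells with BirA and puromycin those with the second virus, and no other treatment of these lines is named. RBBP4 and RBBP7 are homologous histone-binding subunits of several chromatin complexes. Each group had 2 libraries, the labels do not say whether these came from separate cultures, and p-values then measure only the spread between these libraries.

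Rbbp4 was listed at 146 and 147 TPM in the controls, at 269.97 and 271 with Rbbp4 OE and at 144 and 143 with Rbbp7 OE. Rbbp7 was listed at 239 and 237 TPM in the controls, at 208 and 217 with Rbbp4 OE and at 725 and 748 with Rbbp7 OE, so each library matched its label. Pluripotency markers (8 genes, none at 0) summed to 7621 to 7875 TPM in control, 8299 to 8573 in Rbbp4 OE and 8258 to 8472 in Rbbp7 OE. For 6 fibroblast markers, of which Postn was at 0 in all libraries, the sums were 4.48 to 5.59 TPM (control), 9.09 to 11.7 (Rbbp4 OE) and 8.75 to 15.7 (Rbbp7 OE). For 6 trophoblast markers they were 34.1 to 37.3, 45.6 to 46.7 and 42.9 to 44.9 TPM in the same order of groups. Over all libraries 6 primitive endoderm markers summed to 0.83 to 2.49 TPM and 6 neural markers to 5.58 to 7.55 TPM. At a limma adjusted p under 0.05 in Rbbp4 OE, Pou5f1 (0.25), Thy1 (0.96) and Tfap2c (0.44) rose and Nanog (-0.23) and Tfcp2l1 (-0.52) fell on the log2 scale. In Rbbp7 OE 0 of these markers passed. There, at an unadjusted p under 0.05 by limma, 2 pluripotency, 1 fibroblast and 2 trophoblast markers were higher and 1 trophoblast marker lower. Against the trophoblast sum, Cdx2 was at 5.49 and 4.88 TPM in the controls, at 2.93 and 3.70 with Rbbp4 OE and at 2.99 and 3.56 with Rbbp7 OE. Dppa5a (4166 to 5134 TPM) made up most of the pluripotency sum, and of those 8 markers 4 were higher and 4 lower in each line. Thy1 made up most of the fibroblast sum in control (4.13 and 5.02 TPM) and Rbbp4 OE (8.87 and 10.8 TPM). The fibroblast marker Col3a1 was at 6.39 TPM in 1 Rbbp7 OE library and at 0.06 in the other. Tfap2c (23.1 to 35.0 TPM) made up most of the trophoblast sum. The part of these markers in the results was not tested. In bulk samples, fewer cells of a type and less RNA per cell cannot be told apart. The 3 groups share 1 estimate of the spread, and both lines were compared with the same 2 controls.

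The sequences of Snora73a and Snora73b are shown because these are the 2 snoRNAs of the 8 hosts with any listed signal, and they are nearly identical in sequence. Both lie on the minus strand of chromosome 4 (GRCm38), Snora73a at chr4:132352775-132352979 and Snora73b at chr4:132352322-132352526. They are given as DNA, 5′ to 3′, from the GENCODE M21 transcripts, and capitals mark the bases that differ.
Snora73a: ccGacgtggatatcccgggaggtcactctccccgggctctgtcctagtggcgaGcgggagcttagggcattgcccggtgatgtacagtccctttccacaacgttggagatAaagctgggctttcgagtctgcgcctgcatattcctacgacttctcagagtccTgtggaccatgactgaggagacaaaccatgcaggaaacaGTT
Snora73b: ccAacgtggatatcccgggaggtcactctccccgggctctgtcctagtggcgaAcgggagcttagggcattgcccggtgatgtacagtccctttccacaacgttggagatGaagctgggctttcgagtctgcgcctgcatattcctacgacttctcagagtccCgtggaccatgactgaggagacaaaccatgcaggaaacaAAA
Both are 205 nt long and 96.6% identical, and they differ at 7 positions counted from the 5′ end (3, 54, 111, 164 and 203 to 205). The longest stretch with no difference is 56 nt. Each carries the ACA triplet that gives the H/ACA class its name, followed by 3 bases in both.

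Snora73a was listed at 0 in both controls, at 54.1 and 54.6 TPM in Rbbp4 OE and at 0 in both Rbbp7 OE libraries. Snora73b was listed at 120.4 and 0 TPM in the controls, at 19.6 and 0 with Rbbp4 OE and at 11.3 and 0 with Rbbp7 OE. Its highest value was thus in a control, and in every group 1 library was above 0 and the other at 0. Summed over the pair, they were at 120.4 and 0 TPM in the controls, at 73.6 and 54.6 with Rbbp4 OE and at 11.3 and 0 with Rbbp7 OE. The sum did not separate Rbbp4 OE from control, since both Rbbp4 OE libraries lay between the 2 controls. Snhg3, the noncoding host of the pair, was listed in every library. It was at 36.5 and 49.9 TPM in the controls, at 54.6 and 52.9 with Rbbp4 OE and at 39.3 and 53.7 with Rbbp7 OE. Its Rbbp4 OE libraries were above both controls, but the lower of them was below the higher Rbbp7 OE library.

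**Figure D1:**
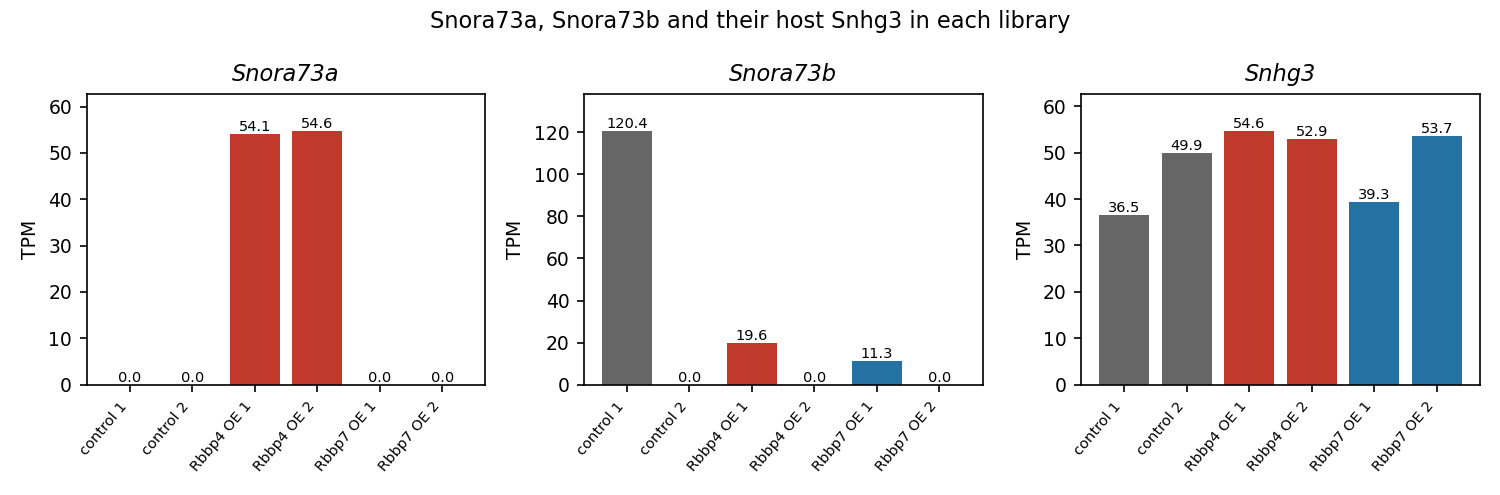
Bars give the TPM (linear axes from 0, with a scale of its own for each gene) of Snora73a, Snora73b and Snhg3 in each of the 6 libraries. Snora73a stands at 54.1 and 54.6 TPM in Rbbp4 OE and at 0 elsewhere, Snora73b is highest in a control (120.4 TPM), and Snhg3 is present in all libraries between 36.5 and 54.6 TPM.

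Several annotated genes share the bases of this locus. Of the 205 bases of Snora73a, 159 lie in an exon of 1 of the 5 annotated Snhg3 transcripts, identical over that length, whereas Snora73b lies in introns of all 5. Snora73b aligns to that same Snhg3 transcript over 156 nt at 98.1% identity. Overlap with a host exon is not particular to Snora73a, since 30 of the 32 snoRNA genes annotated in the 8 hosts have it. The antisense gene Gm17300 covers 175 bases of Snora73a and all 205 of Snora73b with its exons, and the strand setting used in counting is not given in the sources used here. Gm17300 was at 24.8 and 26.2 TPM in the controls, at 23.3 and 19.98 with Rbbp4 OE and at 19.0 and 20.2 with Rbbp7 OE, so both lines lay below control. Rcc1, which encodes the nucleotide exchange factor of Ran, runs on the same strand and spans 5592 nt of Snhg3. Its span also holds both Snora73 genes, outside its exons, so by annotation it is a host of them too. Rcc1 was at 114 and 125 TPM in the controls, at 98.5 and 101 with Rbbp4 OE and at 107 and 112 with Rbbp7 OE, so both lines lay below control. Snhg3, Rcc1 and Gm17300 thus had values in every library, and how the estimates were divided among them was not tested.

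The other snoRNAs of these hosts were listed at 0. The 8 hosts hold 32 annotated snoRNA genes on their own strand: 8 in Snhg1, 2 in Snhg3, 2 in Snhg5 (Snord50a and Snord50b), 1 in Snhg6 (Snord87), 1 in Snhg8 (Snora24), 5 in Snhg12, 10 in Gas5 and 3 in Zfas1. Snora16a in Snhg12 and Snord80 in Gas5 are each annotated as 2 entries over nearly the same bases, and 1 Gas5 entry is named Mir5117. The 30 entries outside Snhg3 are 60 to 137 nt long and were listed at 0 in all 6 libraries. No gene whose longest transcript is under 164 nt had a value above 0 in any library, and 6200 genes are that short. Of 1558 snoRNA and related scaRNA genes, 54 reach that length and 23 were above 0 somewhere. Among these 23, 21 (91.3%) had 1 replicate at 0 and the other above 0 in at least 1 group, and none was above 0 in all 6 libraries. The number above 0 was 4 and 8 in the controls, 11 and 13 with Rbbp4 OE, and 4 and 2 with Rbbp7 OE. Besides Snora73a, Gm23547 (named after its values were seen) was above 0 in both Rbbp4 OE libraries, at 6.04 and 7.07 TPM, and at 0 in the other 4. Thus Snora73a, alike in both Rbbp4 OE libraries, was 1 of 2 snoRNA genes with this pattern, a class in which 1 replicate at 0 beside another above 0 was common.

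As for the host RNAs, their order of level was Snhg1 > Zfas1 > Snhg5 > Snhg8 > Gas5 > Snhg12 > Snhg3 > Snhg6, with means over the 6 libraries of 278, 173, 162, 131, 94.2, 84.1, 47.8 and 19.8 TPM, a unit that is corrected for length. Between neighbours in this order the ranges over the 6 libraries did not overlap for Snhg1 and Zfas1, for Snhg12 and Snhg3, and for Snhg3 and Snhg6 only. The other 4 neighbouring pairs had overlapping ranges. Together the 8 RNAs summed to 1059 ± 7.28 TPM in control, 952 ± 14.3 in Rbbp4 OE and 958 ± 5.30 in Rbbp7 OE (SD, n = 2). Both overexpression lines lay below both controls (1054 and 1064 TPM), and the Rbbp4 OE values (942 and 962) enclosed those of Rbbp7 OE (954 and 962). This order depended on the scaling: after median-of-ratios scaling between libraries the sums were 1060.4 and 998.9 in the controls, 986.7 and 1007.9 with Rbbp4 OE and 935.3 and 938.5 with Rbbp7 OE, so that Rbbp4 OE overlapped control and Rbbp7 OE lay below both.

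**Figure D2:**
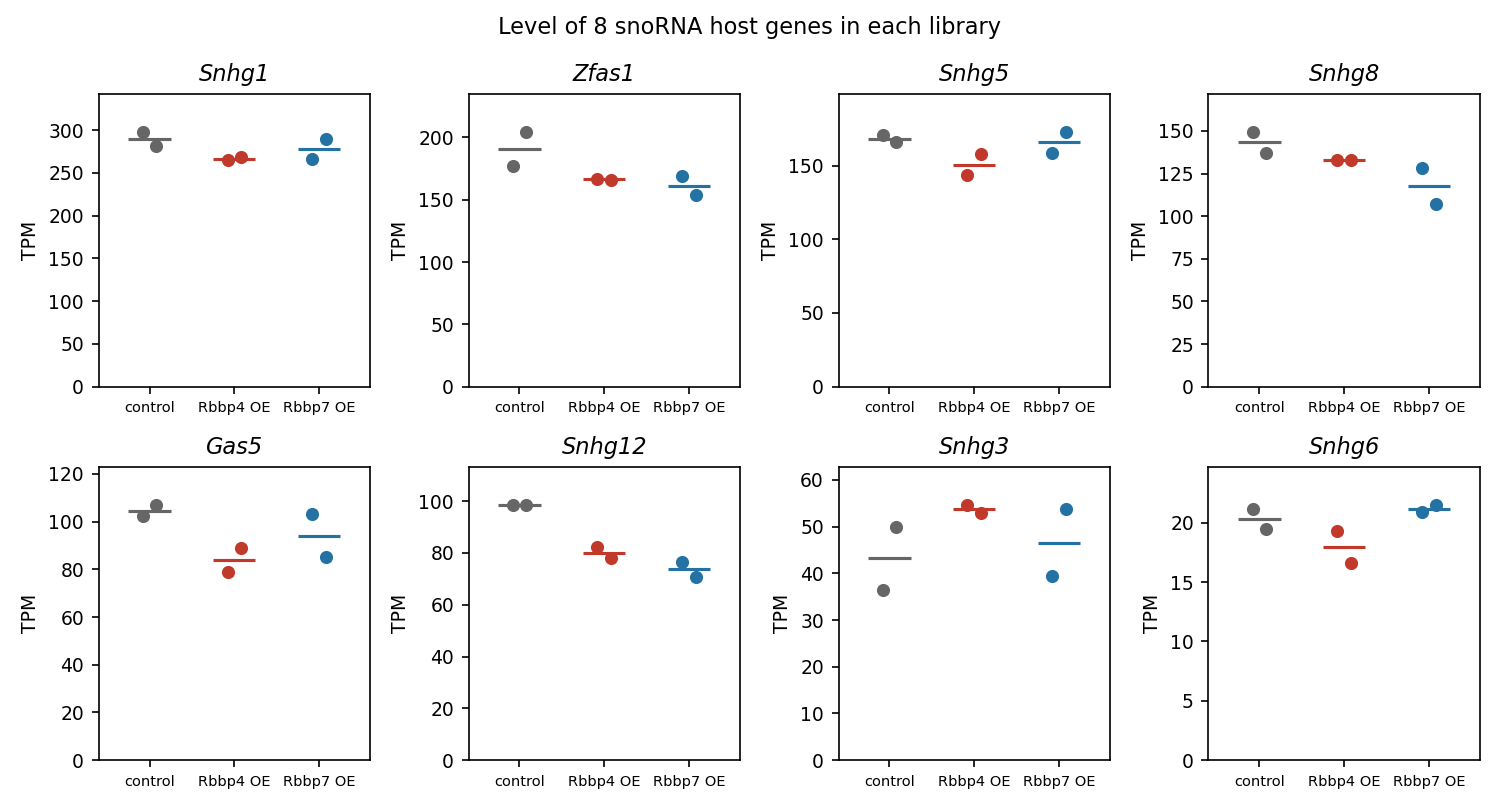
Points are single libraries and lines are group means, in TPM on linear axes from 0, for the 8 host genes in order of level. Snhg12 lies at 98.4 TPM in both controls and between 70.8 and 82.3 TPM in the 4 overexpression libraries, while Snhg3 is the 1 gene with both Rbbp4 OE libraries above control.

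Snhg12 hosts Snora16a, Snora44, Snora61 and Snord99 (chr4:132308623-132311024, plus strand). It was listed at 98.43 and 98.39 TPM in the controls, at 82.3 and 77.9 with Rbbp4 OE and at 76.7 and 70.8 with Rbbp7 OE. Both lines lay below control with no overlap, Rbbp7 OE the lowest. The log2 fold change was -0.29 (SE 0.067) in Rbbp4 OE and -0.41 (SE 0.067, 95% interval -0.58 to -0.25) in Rbbp7 OE. The latter is 24.9% lower on the TPM + 1 scale and missed the threshold of 0.05 (limma adjusted p = 0.0806), while the adjusted p ranged from 0.0474 to 0.316 over 16 other settings. Trnau1ap, a selenocysteine tRNA-associated protein gene 738 nt away on the opposite strand, was at 45.8 and 54.8 TPM in the controls, at 35.5 and 34.5 with Rbbp4 OE and at 40.9 and 47.7 with Rbbp7 OE.

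Gas5 (chr1:161034422-161038539, plus strand) holds 10 annotated snoRNA genes and is known as a growth-arrest transcript that accumulates when translation, and with it NMD, is blocked. It was listed at 102 and 107 TPM in the controls, at 78.7 and 88.8 with Rbbp4 OE and at 103 and 85.2 with Rbbp7 OE. Rbbp4 OE lay below control (log2 fold change -0.32, SE 0.11), whereas the Rbbp7 OE libraries fell on both sides of the lower control (-0.16, SE 0.11, limma adjusted p = 0.545).

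Zfas1 (chr2:167062934-167065862, plus strand), the host of Snord12, was listed at 177 and 205 TPM in the controls, at 166.4 and 166.0 with Rbbp4 OE and at 169 and 154 with Rbbp7 OE. Both lines lay below both controls, by -0.19 (SE 0.085) and -0.24 (SE 0.085, limma adjusted p = 0.264) on the log2 scale. It overlaps 82 nt of the antisense gene Znfx1, which stayed between 6.80 and 7.96 TPM in all libraries.

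Snhg8 (chr3:123507552-123508404, minus strand), the host of the H/ACA snoRNA Snora24, was listed at 149.5 and 137 TPM in the controls, at 132.8 and 133.2 with Rbbp4 OE and at 128 and 107 with Rbbp7 OE. Its order was control above Rbbp4 OE above Rbbp7 OE with no overlap. The log2 fold change was -0.11 (SE 0.096) in Rbbp4 OE and -0.29 (SE 0.096, limma adjusted p = 0.240) in Rbbp7 OE.

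Snhg1 (chr19:8723475-8726443, plus strand), the most abundant host and that of Snord22, was listed at 298 and 282 TPM in the controls, at 265 and 269 with Rbbp4 OE and at 267 and 289.7 with Rbbp7 OE. Rbbp4 OE lay just below control (-0.12, SE 0.060) and Rbbp7 OE overlapped it (-0.06, SE 0.060, limma adjusted p = 0.687). Slc3a2, an amino acid transporter chain whose gene starts 105 nt away on the opposite strand, was at 168 and 169.8 TPM in the controls, at 145 and 153 with Rbbp4 OE and at 144 and 158 with Rbbp7 OE.

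Snhg5 (chr9:88521050-88522929, minus strand), the host of Snord50a and Snord50b, was listed at 171 and 166 TPM in the controls, at 143 and 158 with Rbbp4 OE and at 158 and 173 with Rbbp7 OE. Snhg6 (chr1:9941959-9944118, minus strand), the host of Snord87, was listed at 21.2 and 19.5 TPM in the controls, at 19.3 and 16.6 with Rbbp4 OE and at 20.9 and 21.5 with Rbbp7 OE. For both genes the Rbbp4 OE libraries were below those of the other groups, with log2 fold changes against control of -0.16 (SE 0.072) for Snhg5 and -0.17 (SE 0.11) for Snhg6. In Rbbp7 OE both overlapped control, at -0.02 (limma adjusted p = 0.922) and 0.06 (limma adjusted p = 0.856). Snhg3 (chr4:132348014-132353686, minus strand) was the 1 host above control in Rbbp4 OE, by 0.33 (SE 0.19), and differed by 0.10 (SE 0.19) in Rbbp7 OE, where the sign turned when 1 library was left out.

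Counted together in Rbbp4 OE against control, 7 of the 8 hosts had both libraries below both controls, against 37.1% of all 14156 genes tested, and 1 (Snhg3) had both above, against 20.8%. Snhg12 alone was below control at an adjusted p under 0.05, as were 8.07% of all genes, and it stayed there in 4 of 16 other settings, and no host was above at that threshold, against 3.29%. No host passed the study's thresholds of an adjusted p under 0.01 and a fold over 2, which 0.516% of all genes did by limma, and 2 (Snhg12 and Gas5) were lower at an unadjusted p under 0.05, against 20.6% of all genes. This comparison took part in the choice of the genes, so nothing is read from these counts. All genes were shifted too, with a median log2 fold change of -0.08 against -0.17 for the hosts. After median-of-ratios scaling the median of all genes was 0.01, that of the hosts was -0.06, and 3 hosts (Snhg12, Gas5 and Zfas1) instead of 7 lay below control without overlap, against 28.8% of all genes.

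In Rbbp7 OE against control Snora73a was at 0 on both sides, although its 0 in these libraries is part of the pattern behind the choice. Here 3 hosts (Snhg8, Snhg12 and Zfas1) had both libraries below both controls, against 23.4% of all genes, and 0 had both above, against 21.2%. By limma 0 hosts were lower and 0 higher at an adjusted p under 0.05, against 0.29% and 0.198% of all genes, and 0 passed the stricter thresholds, against 0.0353%. Those same 3 hosts had an unadjusted p under 0.05, which 8.14% of all genes had in the lower direction. The median log2 fold change was -0.11 for the hosts and -0.0037 for all genes, and 6 of the 8 hosts were below 0, against 50.7% of all genes. After median-of-ratios scaling 4 hosts (Gas5 besides those 3) lay below control without overlap, against 23.1% of all genes.

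In Rbbp4 OE against Rbbp7 OE the hosts were divided, with 4 higher, against 36.5% of all genes, and 4 lower, against 63.3%. After median-of-ratios scaling, 5 were higher and 3 lower, with the median of all genes then at 0.0013, so that the shares just given do not apply. Snhg8 (0.18, SE 0.096) and Snhg12 (0.12, SE 0.067) were higher in Rbbp4 OE with no overlap, against 16.1% of all genes, and Snhg5 (-0.14, SE 0.072) and Snhg6 (-0.23, SE 0.11) lower, against 38.6%. By limma 0 hosts passed an adjusted p under 0.05, against 0.177% of all genes higher and 0.127% lower, 0 passed the stricter thresholds, against 0.0494%, and 0 had an unadjusted p under 0.05, against 4.91% higher and 14.1% lower. The remaining differences were 0.22 (SE 0.19) for Snhg3, -0.16 (SE 0.11) for Gas5, -0.06 (SE 0.060) for Snhg1 and 0.04 (SE 0.085) for Zfas1. Nothing is read from these counts either.

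**Figure D3:**
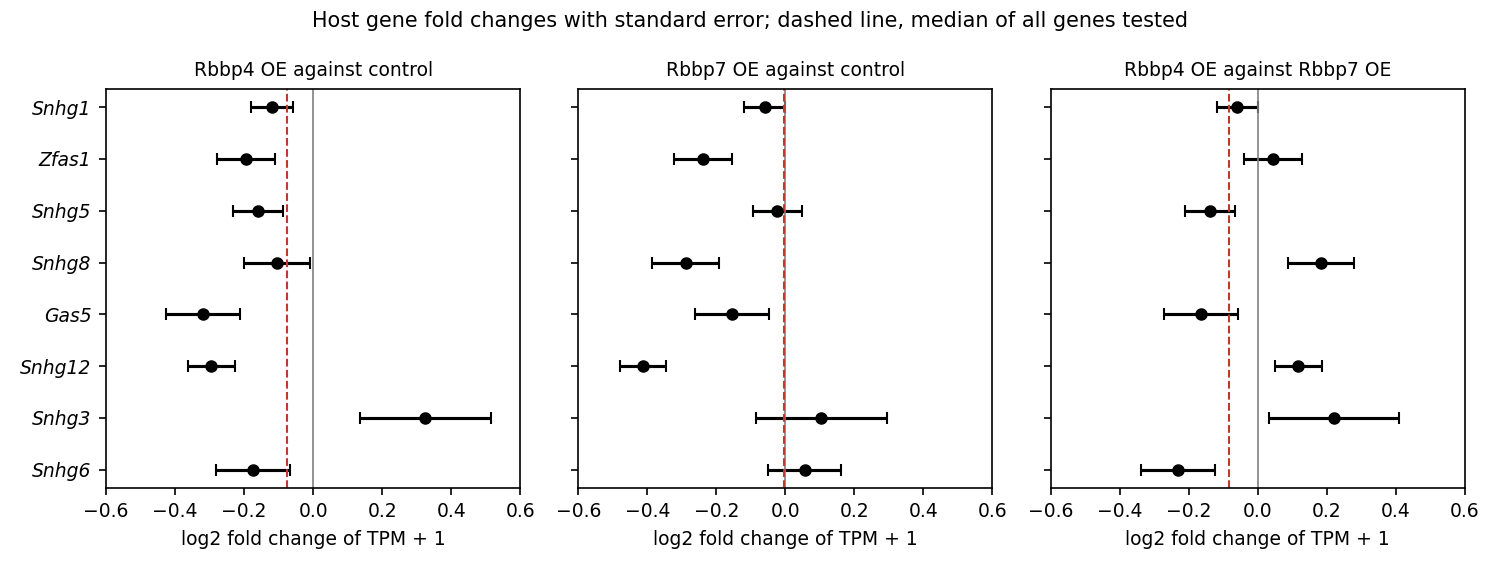
Points are log2 fold changes of TPM + 1 from the limma fit, bars are 1 standard error, and the dashed line is the median of all 14156 genes tested (-0.08, -0.0037 and -0.08). In Rbbp4 OE against control 7 hosts lie left of 0 and Snhg3 right of it, and in Rbbp7 OE against control Snhg12 lies farthest left at -0.41.

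Start sequences of host genes are shown for Snhg12 and Gas5, which had the lowest log2 fold changes in Rbbp4 OE, and for Snhg3, which went the other way. They run from 20 bases before to 20 bases from the annotated start, from RefSeq on GRCm38.p6. Capitals mark the longest pyrimidine run in the window, defined as a C followed directly by at least 4 bases that are C or T. The windows are chr4:132308658-132308697 (plus strand), chr1:161035146-161035185 (plus strand) and chr4:132353667-132353706 (minus strand).
Snhg12: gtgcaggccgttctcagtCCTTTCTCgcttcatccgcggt
Gas5: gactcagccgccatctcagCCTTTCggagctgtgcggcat
Snhg3: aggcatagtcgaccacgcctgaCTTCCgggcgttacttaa
All 3 windows hold the run, of 8, 6 and 5 bases, beginning at positions -2, -1 and 3 relative to the annotated start. Of the 7 hosts with an entry, 5 hold it (these 3, Snhg5 and Snhg8). Counted by window, 5 of the 8 windows of these 7 hosts hold it, against 45.9% of the 32851 windows over all genes. It was not found for Snhg1, Zfas1 or another annotated start of Gas5. The part of the run in these levels was not tested.

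The 8 hosts belong to a larger class of noncoding hosts. Of 12 further noncoding hosts matched by name, 11 were tested, with medians of 0.18 in Rbbp4 OE and -0.01 in Rbbp7 OE against control. At an adjusted p under 0.05 (limma) 2 rose and 0 fell in Rbbp4 OE (0 lower at an unadjusted p under 0.05), and 1 rose and 0 fell in Rbbp7 OE (1 lower unadjusted). Over all genes 3.29% rose and 8.07% fell in Rbbp4 OE, and 0.198% rose and 0.29% fell in Rbbp7 OE. The imprinted RNA Rian, host of a large cluster of box C/D snoRNAs, was at 92.2 and 91.2 TPM in the controls, at 179.9 and 169 with Rbbp4 OE and at 145 and 148 with Rbbp7 OE. It rose by 0.92 (SE 0.056, limma adjusted p = 0.00244) and 0.67 (SE 0.056, limma adjusted p = 0.0230) on the log2 scale, the first passing in all 16 other settings and the latter in 7. Snhg11 rose in Rbbp4 OE (controls 7.34 and 7.86 TPM, Rbbp4 OE 11.2 and 10.7, Rbbp7 OE 8.32 and 8.33), by 0.47 with a limma adjusted p = 0.0477 that held in 6 of 16 other settings. Snhg9, singled out after its values were seen, was listed at 112 TPM in 1 Rbbp4 OE library and at 0 in the other 5.

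Protein-coding hosts had more calls in Rbbp4 OE than in Rbbp7 OE, as all genes did. Of 195 tested protein-coding genes outside the ribosomal protein list that hold a snoRNA gene, 31 fell and 6 rose at a limma adjusted p under 0.05 in Rbbp4 OE, with a median of -0.23 against -0.08 for all genes. Over all genes 8.07% fell and 3.29% rose there. Pir, which encodes the iron-binding protein pirin, fell from 13.1 and 15.7 TPM in control to 1.47 and 1.23 in Rbbp4 OE (-2.71, SE 0.15, limma adjusted p = 0.00181), with 6.31 and 6.27 in Rbbp7 OE. Qtrt2, a subunit of the enzyme that puts queuine into tRNA, fell from 36.1 and 41.4 TPM to 19.5 and 13.4 (-1.21, SE 0.17, limma adjusted p = 0.0156). The largest increases were those of Gm45713, from 3.95 and 3.17 TPM to 6.60 and 6.17 (0.70), and Snhg11, which is annotated as protein-coding and so also counts here. In Rbbp7 OE the median was -0.02 and 1 gene fell, Odc1, the rate-limiting enzyme of polyamine synthesis, from 343.96 and 343.66 TPM in control to 270.2 and 271 (-0.34, SE 0.043, limma adjusted p = 0.0456, held in 5 of 16 other settings). Odc1 also fell in Rbbp4 OE, to 191 and 194 TPM (-0.83, limma adjusted p = 0.00173). In Rbbp4 OE against Rbbp7 OE, Pir (-1.63) and Odc1 (-0.49) were the 2 of these hosts that fell (limma adjusted p = 0.0239 for both), calls that held in 6 and 7 of 16 other settings. The 31 decreases ranged from 2 to 39 over the other settings.

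Ribosomal protein mRNAs are known to start with a pyrimidine run, although their starts were not examined here as a group. They had medians of 0.06 in Rbbp4 OE and -0.07 in Rbbp7 OE over 87 genes. In Rbbp4 OE 9 rose and 2 fell at a limma adjusted p under 0.05, against 3.29% and 8.07% of all genes. These counts ran from 0 to 17 and from 0 to 16 over the other settings. In Rbbp7 OE 0 passed (unadjusted, 2 were higher and 14 lower at p under 0.05 by limma). Rpl39l, a paralog of Rpl39, rose from 163 and 166 TPM to 258 and 267 (0.67, SE 0.050, limma adjusted p = 0.00412) and was at 199 and 192 in Rbbp7 OE. Rpl32 fell in Rbbp4 OE, from 4745 and 4304 TPM to 3762 and 3753 (-0.27, limma adjusted p = 0.0284), and Rps3 fell by 0.18 on the log2 scale (limma adjusted p = 0.0267). The 30 of them that hold a snoRNA gene had medians of 0.03 and -0.09.

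Factors that act on snoRNAs or their hosts were examined as lists. None of the 8 core proteins of the snoRNA particles (the methylase fibrillarin Fbl, the pseudouridine synthase Dkc1 and their partners) passed a limma adjusted p of 0.05 in either line, with medians of -0.07 in Rbbp4 OE and -0.10 in Rbbp7 OE (2 and 3 lower at an unadjusted p under 0.05). Of 11 particle assembly factors, 4 fell in Rbbp4 OE (Naf1, Coil, Shq1 and Pih1d1), against 8.07% of all genes, and 0 passed in Rbbp7 OE (1 unadjusted). Their median in Rbbp4 OE was -0.07, against -0.08 for all genes, and 4 of the 11 were higher. Naf1, needed for assembly of H/ACA particles, fell from 23.4 and 29.0 TPM to 17.5 and 16.9 (-0.57, SE 0.12, limma adjusted p = 0.0350) and was at 27.4 and 28.4 in Rbbp7 OE. Coil, the Cajal body protein coilin, fell from 25.1 and 27.9 TPM to 19.1 and 17.4 (-0.51, SE 0.098, limma adjusted p = 0.0298) and was at 21.8 and 22.6 in Rbbp7 OE. These 4 decreases ranged from 0 to 4 over the other settings.

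Among 15 NMD factors, Upf1, the central helicase of the pathway, was the 1 that passed in Rbbp4 OE. It was at 43.9 and 47.3 TPM in the controls, at 60.0 and 59.9 with Rbbp4 OE and at 57.3 and 59.6 with Rbbp7 OE. Upf1 rose by 0.39 (SE 0.070, limma adjusted p = 0.0255), and in Rbbp7 OE the difference of 0.35 missed the threshold (limma adjusted p = 0.116). For Upf1 all 4 overexpression libraries lay above both controls. The list as a whole was divided, with 6 higher and 9 lower in Rbbp4 OE (median -0.05). In Rbbp7 OE 7 were higher and 8 lower (median -0.03). The largest decrease in Rbbp4 OE was that of Smg1 (-0.46, limma adjusted p = 0.0565). Of 13 genes of mTOR signalling and of the control of pyrimidine-run mRNAs, 0 passed in either line, with medians of -0.22 and -0.07 (4 lower and 1 higher at an unadjusted p under 0.05, in Rbbp4 OE and Rbbp7 OE in turn). Of 21 genes of ribosomal RNA synthesis and processing, 1 rose and 2 fell in Rbbp4 OE, where 3.29% and 8.07% of all genes did. In Rbbp7 OE 0 of them passed (1 higher and 1 lower unadjusted). Npm1, the nucleolar protein nucleophosmin, rose from 4419.95 and 4645 TPM to 6040 and 6011 (0.41, SE 0.036, limma adjusted p = 0.00574), with 5185 and 5230 in Rbbp7 OE. Taf1c, a subunit of the RNA polymerase I initiation factor SL1, fell by 0.44 on the log2 scale (limma adjusted p = 0.0351), and Bop1, a processing factor of the large subunit, fell by 0.33 (limma adjusted p = 0.0197).

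**Figure D4:**
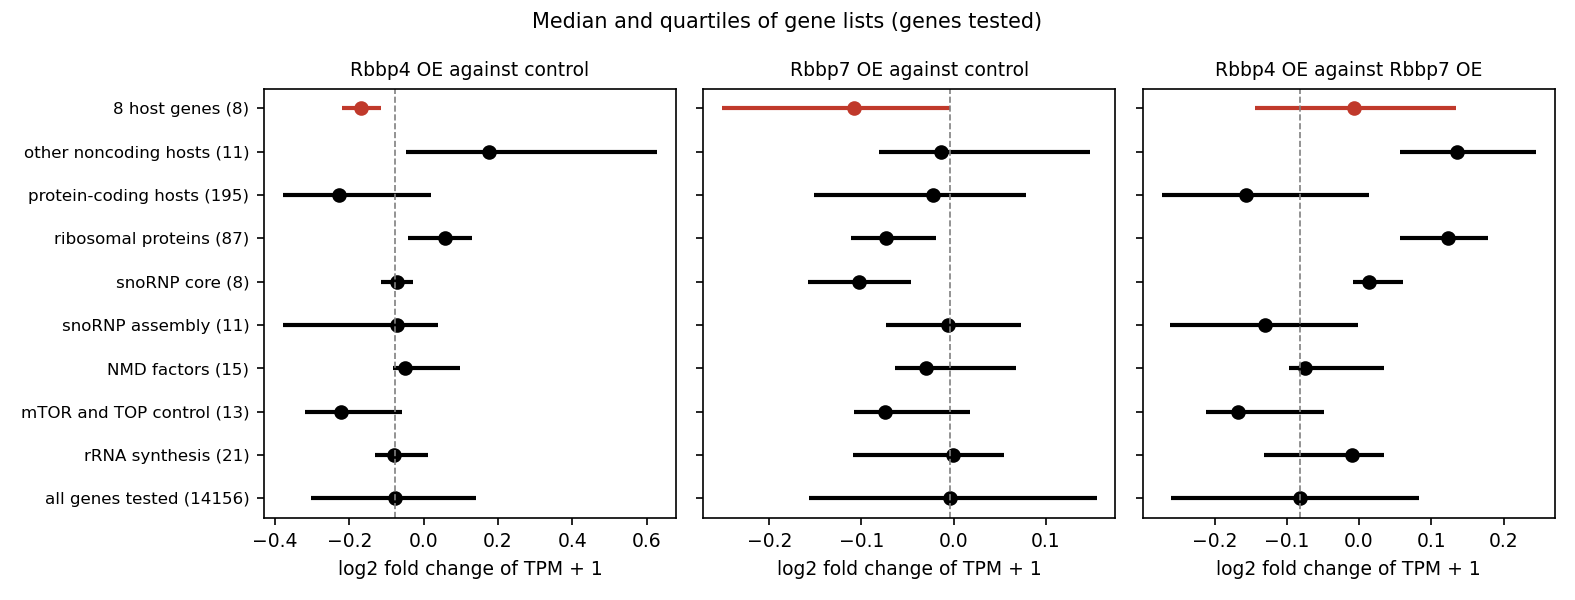
Points are medians and lines run from the lower to the upper quartile of log2 fold changes of TPM + 1 over the tested genes of each list (their number in parentheses), with the median of all genes dashed. In Rbbp4 OE against control the 8 hosts have a median of -0.17, other noncoding hosts 0.18, protein-coding hosts -0.23 and ribosomal protein genes 0.06.

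The tested genes most like the mean profile of the 8 hosts over the 6 libraries, by Pearson correlation of log2(TPM + 1), were Gm26712 (r = 0.999), St3gal4 (0.998), Gm17052 (0.996), Adam19 (0.996) and B4galt1 (0.996). Gm26712 was at 13.5 and 36.0 TPM in the controls and at 0 in all 4 overexpression libraries. St3gal4, a sialyltransferase gene, was at 10.4 and 11.1 TPM in control and between 8.77 and 8.93 in the other 4, and Adam19 and B4galt1 had the same order. On the TPM scale the profile is thus one of controls above both lines, and 517 of 14148 genes (3.65%) had an r of at least 0.9 with it. The 6 libraries fall into 3 groups and share their controls, so r is a description only. The members did not all share the mean profile: over their 28 pairs the median r was 0.15, 18 pairs were positive, and 0 of the 7 pairs with Snhg3 were.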

How the data were processed

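Poly(A) RNA was sequenced from 6 libraries of 46C cells, 2 per group, grouped by their labels. After trimming, the authors aligned reads with STAR to mm10, estimated expression with RSEM on a GENCODE annotation and deposited TPM values, which are divided by transcript length and scaled to a fixed total. Sequencing depth is therefore unknown, no counting interval can be given, and a short transcript listed at 0 may be one whose estimate failed.

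Gene names and coordinates came from GENCODE M21 (GRCm38), matched without version. Of the 55401 genes, 55141 matched, 54349 with the same version, and 260 did not. The study tested counts. TPM values are not counts, so limma-trend (limma 3.58.1, R 4.3.3) was run on log2(TPM + 1), a scale that understates changes at low levels. The 14156 genes averaging 0.5 TPM or more were tested, all 3 groups in 1 fit without covariates (3 residual and 3.103 prior degrees of freedom), with Benjamini-Hochberg adjustment over all of them. The fit was tested on simulated data with changes larger than those of any host. That test therefore does not measure how well changes of their size are found. Copies were searched with blastn 2.17.0 against all M21 transcripts.

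The 8 hosts and the gene lists were chosen with earlier results of these data known. Named genes were the 8 hosts, Rbbp4 and Rbbp7, their snoRNAs with a value above 0, genes called in each list with the 2 largest increases and decreases at an adjusted p under 0.05, and the 5 genes most like the hosts. Some overlapping or nearby genes, though not all, were added for their position. Alternatives changed the pseudocount (0.1 or 5), the filter (none, or an average of 5 TPM), the scaling (median of ratios, quantile, or corrected for GC content and length) and the fit (replicate block, only the 2 groups compared, robust trend, or 1 library left out). The counts without overlap and the sums after scaling were added after seeing the data.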

Additional observations from a re-analysis of the deposited data

How the results depend on the processing

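The count of hosts at the stricter thresholds was 0 in all 3 comparisons under every alternative. Snhg12 was the 1 host below an adjusted p of 0.05 in Rbbp4 OE against control. That count fell to 0 with no filter, median-of-ratios scaling, quantile normalization, the replicate block, 2-group fits and the GC and length correction, and leaving out each library in turn gave 0 to 0, with 1 to 3 hosts at an unadjusted p under 0.05 by limma. The cause was not tested. In Rbbp7 OE against control the count rose from 0 to 1 (Snhg12, adjusted p = 0.0474) with a mean TPM of at least 5, where fewer genes were tested. After median-of-ratios scaling, chosen after seeing the data, hosts without overlap went from 7 to 3 lower in Rbbp4 OE against control, from 3 to 4 lower in Rbbp7 OE against control, and from 2 to 4 higher (26.4% of all genes) and 2 to 1 lower (26.9%) in Rbbp4 OE against Rbbp7 OE. In Rbbp7 OE against control, leaving out 1 library turned the sign for Snhg3 (range -0.12 to 0.32; -0.11 without control replicate 1 and -0.12 without Rbbp7 OE replicate 2), Snhg5 (range -0.086 to 0.039, the highest without Rbbp7 OE replicate 1) and Snhg6 (range -0.0011 to 0.11, the lowest without control replicate 2), and Snhg5 was at 0.0031 after the GC and length correction. Signs also turned for Snhg8 in Rbbp4 OE against control (0.0015 after median-of-ratios scaling) and, in Rbbp4 OE against Rbbp7 OE, for Snhg1 (0.04 after that scaling and 0.0011 without Rbbp7 OE replicate 2) and Zfas1 (-0.02 without Rbbp7 OE replicate 2). Among genes outside the hosts named in Rbbp4 OE against control at an adjusted p under 0.05, Rian, Pir and Odc1 passed in all 16 alternatives, Rpl39l in 15 (not without Rbbp4 OE replicate 2), and the rest in 4 to 11. Rian and Odc1 in Rbbp7 OE lost that call whichever of the 6 libraries was left out. Replicate numbers did not pair the libraries (correlations of same-numbered deviations of -0.026, 0.034 and -0.031), and the replicate block changed no other count of hosts. TPM keeps no depth, so what depth limits could not be assessed.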
